A study of Homo sapiens with 24 samples.

Results

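The RNA levels of 9 genes that write or maintain repressive chromatin marks were examined in LNCaP cells, an established androgen-responsive human prostate cancer line. The genes were EZH1, EZH2, SUZ12 and EED, core subunits of polycomb repressive complex 2 (PRC2), and DNMT1, DNMT3A, DNMT3B, UHRF1 and HELLS, the main enzymes and cofactors of DNA methylation. They were taken by symbol from all tables and make up 9 of the 23946 gene names that the tables hold. All 9 were listed in both RNA-seq experiments and passed the filters on low values. In the ligand experiment, cells received vehicle, 10 µM enzalutamide (an antiandrogen drug) or 10 nM dihydrotestosterone (DHT, a natural androgen), with RNA taken after 4 h and 24 h of either ligand. No time is given for the vehicle, which served as the control at both times. In the siRNA experiment, cells transfected with a non-targeting pool (siControl) or a pool of siRNAs against the pioneer factor GATA2 (siGATA2) were given vehicle or enzalutamide at 25 µM during 24 h, starting 72 h after transfection. All groups share the cell line and, per the labels, culture in charcoal-stripped serum, which is depleted of steroid hormones, for 3 days before treatment. LNCaP is 1 line, and how these genes respond in other prostate cells was not analysed here.

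PRC2 places methyl groups on lysine 27 of histone H3 (H3K27) at silenced genes. EZH2 and EZH1 are its alternative catalytic subunits, with EZH2 typical of dividing cells and EZH1 of resting cells, SUZ12 is the scaffold that both need, and EED reads the finished mark and stimulates the enzyme. DNMT1 copies the methylation pattern of the parental DNA strand onto the new strand after replication, UHRF1 recognises the half-methylated sites and brings DNMT1 to them, and the remodeller HELLS (also called LSH) opens packed chromatin to the methyltransferases. DNMT3A and DNMT3B add methyl groups to sites that carried none. In prostate cancer EZH2 is best known for its high level in advanced disease, and methylation of promoters such as that of GSTP1 is an early and frequent change.

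Promoter sequences of the 9 genes are shown here because several of the genes changed together with genes of DNA replication, many of which carry sites for E2F factors. RefSeq promoter windows (GRCh38.p14, from 250 bases before to 50 bases after each transcript start, 17 windows for the 9 genes) were searched on both strands for the 8-base E2F-type motifs TTTCCCGC, TTTCGCGC, TTTGCCGC and TTTGGCGC. The matches in the windows of the 9 genes did not overlap one another. Of all 35116 windows 3.31% held at least 1 of these motifs, and of all 27305 genes 3.99% had such a window. Among the 9 genes the motif was found for 6, EZH1, EZH2, SUZ12, DNMT1, UHRF1 and HELLS, in 7 of 17 windows, and the windows of EED, DNMT3A and DNMT3B did not contain these letters. The stretches that contain it are printed 5′ to 3′ on the strand of the gene, with the motif, on either strand, in capitals. A match describes the letters of the window and is not a measurement of binding. After 24 h of enzalutamide EZH2, SUZ12, DNMT1, UHRF1 and HELLS, which have the motif, fell, as did EED and DNMT3B without it. EZH1 with the motif and DNMT3A without it rose. A link between the motif and the changes in RNA was not tested.
EZH2 (chr7:148884273-148884300, minus strand): ggctgccgcgTTTGGCGCtcggtccggt
EZH1 (chr17:42745118-42745185, minus strand): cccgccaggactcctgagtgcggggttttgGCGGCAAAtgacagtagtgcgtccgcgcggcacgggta
SUZ12 (chr17:31936788-31936855, plus strand): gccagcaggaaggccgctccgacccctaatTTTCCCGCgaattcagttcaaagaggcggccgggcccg
DNMT1 (chr19:10194938-10194965, minus strand): atcggtttccGCGCGAAAagccggggcg
UHRF1, first window (chr19:4909457-4909500, plus strand): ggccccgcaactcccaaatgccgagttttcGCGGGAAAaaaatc
UHRF1, second window (chr19:4909954-4910021, plus strand): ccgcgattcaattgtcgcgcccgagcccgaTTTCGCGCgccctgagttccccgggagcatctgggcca
HELLS, distal motif (chr10:94545682-94545749, plus strand): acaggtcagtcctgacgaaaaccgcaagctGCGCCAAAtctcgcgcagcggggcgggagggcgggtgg
HELLS, proximal motif (chr10:94545750-94545787, plus strand): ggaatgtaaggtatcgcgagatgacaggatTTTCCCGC

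In a list of 21 genes of S phase (among them the replication helicase and its loaders, nucleotide synthesis enzymes and E2F1), 18 had a window and 14 of these, 77.8%, held one of the motifs. The genes themselves lie, in the GENCODE 29 annotation of GRCh38, on chromosome 17 from 42700275 to 42745049 (EZH1), chromosome 7 from 148807383 to 148884321 (EZH2), chromosome 17 from 31937018 to 32001045 (SUZ12) and chromosome 11 from 86244544 to 86278813 (EED). DNMT1 lies on chromosome 19 from 10133345 to 10231286, DNMT3A on chromosome 2 from 25227855 to 25342590 and DNMT3B on chromosome 20 from 32762385 to 32809356. UHRF1 lies on chromosome 19 from 4903080 to 4962154 and HELLS on chromosome 10 from 94501434 to 94613905. The deposited tables were made on an earlier build (hg19) and give values per gene, without coordinates.

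The ligand tables hold estimated counts, with totals of 38894849 to 59985231 per library and 2 replicates per condition. Of the 4 vehicle columns, 3 carry replicate number 1 in their headers. These differed from one another less than from replicate 2 (mean chi-square per gene 1.53 to 1.56 against 3.56 to 3.74) and were summed to 1 replicate. The sample titles number the vehicle samples 1 to 4, and whether the 3 summed columns came from separate cultures is not known. The least expressed member, DNMT3B, had 294 to 567 counts per library. The siRNA tables hold RPKM values (reads scaled by gene length and by the mapped reads of the library), with 3 replicates per condition and about 56000000 to 74000000 mapped reads per library, as read from the steps of the low values. The labels call the ligand libraries biological replicates but do not say whether the siRNA libraries came from separate cultures, so p-values there measure only the spread between libraries, which may be technical. KLK3, which encodes the androgen-induced antigen PSA, averaged 256 CPM (counts scaled to the library size) in vehicle, 110.0 CPM after 24 h of enzalutamide and 2117 CPM after 24 h of DHT. GATA2 was at 83.8, 77.0 and 86.1 RPKM in the siControl vehicle libraries and at 54.3, 53.4 and 46.6 RPKM in the siGATA2 vehicle libraries, so its RNA fell by 37.5%. With enzalutamide GATA2 averaged 129.3 RPKM in siControl and 62.1 RPKM in siGATA2 cells, so the depth of silencing differed between treatments. KLK3 averaged 791 RPKM in siControl and 24.1 RPKM in siGATA2 vehicle cells, and 286 and 18.5 RPKM with enzalutamide. The part of these differences in the responses of the 9 genes was not tested. All 9 luminal prostate markers were at 1 CPM or RPKM or more, and PTPRC, PECAM1, KRT5 and COL1A2, which define immune, endothelial, basal and stromal cells, were at or near 0 in every group (at most 0.0624 CPM or 0.0164 RPKM on average). Of the remaining markers of those types, several moved. CD68 was at 3.73 RPKM in siControl and 11.5 RPKM in siGATA2 vehicle cells. VWF was at 16.0 CPM in vehicle, 8.73 CPM after 24 h of enzalutamide and 21.0 CPM after 24 h of DHT. By adjusted p, KRT14, CD68 and VWF rose and ITGB4 and COL1A1 fell after 24 h of DHT. In siControl cells enzalutamide raised COL1A1 and CD68 and lowered KRT14, PDGFRB and VWF. With siGATA2 in vehicle ITGB4, COL1A1, CD68 and VWF rose, and KRT14, ACTA2, COL3A1 and PDGFRB fell. Summed over each list, the ligand libraries held 2.78 to 6.58 CPM of basal, 16.8 to 31.7 CPM of stromal, 1.28 to 3.03 CPM of immune and 8.47 to 21.4 CPM of endothelial markers, against 3822 to 6438 CPM of luminal markers. The siRNA libraries held 2.20 to 3.37, 12.2 to 17.5, 3.63 to 12.3 and 0.371 to 1.30 RPKM in the same order, against 747 to 1566 RPKM, and the part of these markers in the results was not tested.

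In siControl vehicle cells, where RPKM allows levels of different genes to be compared, DNMT1 was the most abundant member at 32.3 ± 0.717 RPKM (SD, n = 3), above 89.7% of the genes tested. SUZ12 followed at 20.3 ± 0.592 RPKM and EZH2 at 12.3 ± 0.764 RPKM. The lower levels were 7.01 ± 0.156 RPKM for EED, 5.66 ± 0.185 RPKM for EZH1, 5.06 ± 0.0942 RPKM for DNMT3A, 4.71 ± 0.242 RPKM for HELLS, 3.63 ± 0.139 RPKM for DNMT3B and 3.51 ± 0.256 RPKM for UHRF1. Neighbours in this order had separate ranges, apart from DNMT3A and HELLS and apart from DNMT3B and UHRF1, whose ranges overlapped. By these values the maintenance methyltransferase was the most abundant RNA of the set and its recruiter UHRF1 and DNMT3B were the lowest. EZH2 exceeded EZH1 in every siControl vehicle library. In the ligand vehicle libraries UHRF1 (46.3 and 42.3 CPM) was far above DNMT3B (8.52 and 8.10 CPM). CPM is not scaled by gene length, and the reason for the unlike order was not tested. The low place of UHRF1 therefore rests on the siRNA values alone.

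Enzalutamide for 24 h lowered most of the set and raised EZH1 and DNMT3A. Against vehicle, all 9 genes had an adjusted p under 0.05 (edgeR quasi-likelihood test with Benjamini-Hochberg adjustment over 15555 genes): 7 fell and 2 rose, where 17% of all genes tested fell and 16.4% rose. The median log2 change of the 9 genes was -0.46, against 0.01 over all genes. The largest falls were those of HELLS and UHRF1, which were the only 2 members to exceed the 2-fold change (with an unadjusted p under 0.05) that the study used as its threshold, a rule that 2.89% of all genes met.

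Among the methylation maintenance genes, HELLS was at 19.2 and 19.9 CPM in vehicle and at 6.92 and 8.09 CPM after 24 h of enzalutamide. It fell by 61.6% (log2 change -1.38, SE 0.07, adjusted p = 8.72e-09), and the groups did not overlap. UHRF1 was at 46.3 and 42.3 CPM in vehicle and at 18.6 and 17.9 CPM with enzalutamide, a fall of 1.28 on the log2 scale (log2 change -1.28, SE 0.05, adjusted p = 1.17e-09). DNMT1, the enzyme that UHRF1 recruits, was at 163 and 165 CPM in vehicle and at 100.2 and 101 CPM with enzalutamide. Its RNA fell by 38.8% (log2 change -0.71, SE 0.04, adjusted p = 2.27e-08), less than that of either cofactor.

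The PRC2 genes did not move as a block. EZH2 was at 42.2 and 42.3 CPM in vehicle and at 29.4 CPM in both 24 h enzalutamide libraries, so that it fell by 30.5% (log2 change -0.52, SE 0.05, adjusted p = 5.14e-06). EZH1, the alternative catalytic subunit, was at 29.2 and 26.7 CPM in vehicle and at 36.5 and 33.8 CPM with enzalutamide, and rose by 25.7% (log2 change 0.33, SE 0.08, adjusted p = 0.00517). The shared subunits changed less. EED was at 21.4 and 20.3 CPM in vehicle and at 17.6 and 17.3 CPM with enzalutamide (log2 change -0.26, SE 0.06, adjusted p = 0.00577). SUZ12 was at 169.7 and 169.5 CPM in vehicle and at 150.4 and 151 CPM with enzalutamide, the smallest change of the set (log2 change -0.17, SE 0.05, adjusted p = 0.0142), and its call was lost when enzalutamide replicate 1 or 2 (adjusted p = 0.0679 and 0.0629) or vehicle replicate 1 (adjusted p = 0.0507) was left out. Reads of SUZ12 can be shared with its near-identical pseudogene SUZ12P1 (9.40 to 13.1 CPM), so small changes of SUZ12 are uncertain.

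The de novo methyltransferases moved in opposite directions. DNMT3A was at 19.2 and 20.6 CPM in vehicle and at 23.3 and 25.8 CPM after 24 h of enzalutamide, and rose by 23.4% (log2 change 0.31, SE 0.08, adjusted p = 0.00927). DNMT3B was at 8.52 and 8.10 CPM in vehicle and at 5.80 and 6.31 CPM with enzalutamide, and fell by 27.1% (log2 change -0.46, SE 0.08, adjusted p = 0.000926). The vehicle and enzalutamide libraries did not overlap for either gene.

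At 4 h the cofactors of maintenance had fallen. UHRF1 was at 34.8 and 35.8 CPM (log2 change -0.33, SE 0.05, adjusted p = 0.00113) and HELLS at 16.0 and 16.7 CPM (log2 change -0.26, SE 0.07, adjusted p = 0.0226), both below the vehicle libraries. These were 2 of 9 members, where 6.68% of all genes fell and 6.94% rose, and none exceeded 2-fold with edgeR, where 0.752% of all genes did. DNMT1 (log2 change -0.01, 95% interval -0.09 to 0.08) and the remaining genes did not pass the test, with EZH2 at 45.5 and 48.5 CPM, slightly above vehicle (log2 change 0.15, adjusted p = 0.0626). The call of HELLS was lost without either vehicle replicate (adjusted p = 0.0651 and 0.1) or without enzalutamide replicate 1 (adjusted p = 0.0605), and the call of UHRF1 was kept in each case. From 4 h to 24 h of enzalutamide 7 members fell and 2 rose, against 12.9% and 11.7% of all genes, with log2 changes of -1.12 for HELLS, -0.95 for UHRF1, -0.70 for DNMT1 and -0.68 for EZH2. HELLS exceeded 2-fold between the times, as did 2.3% of all genes.

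The column headers of the ligand tables carry 1 of 3 prefixes whose meaning is not given, and both 4 h enzalutamide libraries have 1 prefix while both 24 h libraries have another. Each prefix holds a column of vehicle replicate 1, which allows a comparison within the prefix. Within it, the 24 h libraries differed from vehicle by log2 values of -1.42 and -1.20 for HELLS, -1.26 and -1.32 for UHRF1, -0.72 and -0.72 for DNMT1, -0.46 and -0.46 for EZH2, and 0.39 and 0.28 for EZH1. The 4 h libraries differed by -0.39 and -0.36 for UHRF1 and -0.33 and -0.28 for HELLS, and by 0.24 and 0.32 for EZH2, whose vehicle replicate 1 columns read 47.4, 38.8 and 40.9 CPM. With the prefix as a term of the model, a fit chosen after seeing the data, 8 members were called at 24 h (all but SUZ12, adjusted p = 0.0682). At 4 h that fit called UHRF1 (log2 change -0.37, adjusted p = 0.00435) and EZH2, which rose (log2 change 0.29, adjusted p = 0.0197), while HELLS had an adjusted p of 0.0537.

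**Figure D1:**
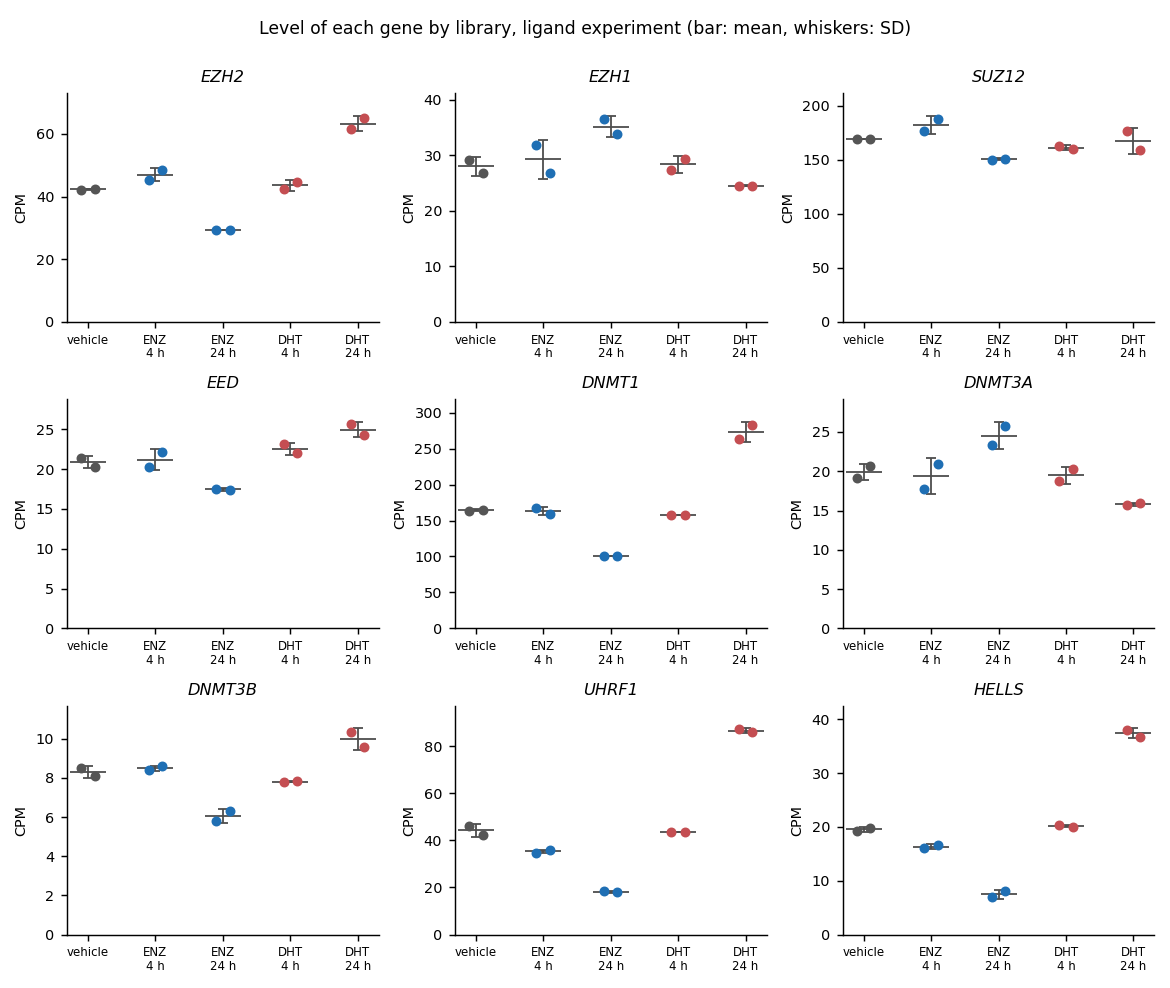
Level of each of the 9 genes in CPM (vertical axis, linear and starting at 0) in the 10 ligand libraries, grouped by condition. Points are single libraries (vehicle replicate 1 is the sum of 3 columns), bars are the means of 2 replicates and whiskers are SD. UHRF1, HELLS, DNMT1 and EZH2 are lowest after 24 h of enzalutamide and highest after 24 h of DHT, and EZH1 and DNMT3A show the opposite order.

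DHT for 24 h moved most of the set the other way. Against vehicle 6 members rose and 1 fell, where 26.9% of all genes rose and 23.2% fell, and the median log2 change was 0.27 against 0.00 over all genes. UHRF1, at 87.3 and 85.8 CPM, rose by 95.5% over vehicle (log2 change 0.96, SE 0.05, adjusted p = 4.58e-09). HELLS was at 38.0 and 36.8 CPM (log2 change 0.94, SE 0.06, adjusted p = 5.13e-08) and DNMT1 at 263 and 283 CPM (log2 change 0.73, SE 0.04, adjusted p = 9.64e-09). None of the members passed 2-fold in this comparison with edgeR, which 5.86% of all genes did.

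Of the PRC2 genes, EZH2 was at 61.6 and 65.0 CPM after 24 h of DHT and rose by 49.8% (log2 change 0.58, SE 0.05, adjusted p = 5.84e-07). EED, at 25.6 and 24.3 CPM, rose by 19.7% (log2 change 0.26, SE 0.06, adjusted p = 0.0031). EZH1 was at 24.5 CPM in both libraries, below both vehicle libraries, but did not pass the test (log2 change -0.19, SE 0.08, adjusted p = 0.055). SUZ12, at 177 and 159.5 CPM, lay on both sides of vehicle (log2 change -0.01, 95% interval -0.11 to 0.09). DNMT3A fell to 15.7 and 15.9 CPM (log2 change -0.33, SE 0.08, adjusted p = 0.00485) and DNMT3B rose to 10.4 and 9.61 CPM (log2 change 0.27, SE 0.08, adjusted p = 0.0135). With the prefix as a term EZH1 was called (log2 change -0.25, adjusted p = 0.0315) and DNMT3B was not (log2 change 0.17, adjusted p = 0.141). Within the prefix the DHT libraries differed from vehicle by 0.20 and 0.04 for DNMT3B, by 0.88 and 0.89 for UHRF1 and by 0.62 and 0.63 for EZH2.

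At 4 h of DHT no member passed the test (0 of 9 with edgeR, 0 of 9 at an unadjusted p under 0.05 and 0 of 9 with DESeq2), where 4.66% of all genes rose, 2.11% fell and 1.2% exceeded 2-fold. The estimates ran from -0.09 for DNMT3B to 0.11 for EED on the log2 scale. UHRF1 was at 43.6 CPM in both libraries (log2 change -0.03, 95% interval -0.13 to 0.08) and HELLS at 20.4 and 20.0 CPM (log2 change 0.05, 95% interval -0.09 to 0.19), although KLK3 was already raised to 620.0 CPM. From 4 h to 24 h of DHT 5 members rose and 2 fell, against 26.3% and 23.5% of all genes, with log2 changes of 0.99 for UHRF1, 0.89 for HELLS, 0.79 for DNMT1 and 0.54 for EZH2. No member exceeded 2-fold between the times by edgeR, and 4.54% of all genes did. EED had an adjusted p of 0.0543. With the prefix as a term, 4 of these 7 calls remained, those of UHRF1, HELLS, DNMT1 and EZH2. In that fit 2832 of all 15595 genes rose and 2513 fell between the times.

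The ligands were also compared directly, without the vehicle libraries that both contrasts above share. At 24 h, all 9 members differed between DHT and enzalutamide: 7 were higher with DHT and 2 were lower, against 31.3% and 33.6% of all genes. HELLS was higher by 2.32 on the log2 scale (SE 0.07), UHRF1 by 2.25 (SE 0.05), DNMT1 by 1.44 (SE 0.04) and EZH2 by 1.11 (SE 0.05), and these 4 exceeded 2-fold, as did 11.8% of all genes in either direction. DNMT3A (log2 difference -0.64, SE 0.08) and EZH1 (log2 difference -0.52, SE 0.08) were lower with DHT. SUZ12 differed least (0.16, SE 0.05, adjusted p = 0.01), and not without DHT replicate 1 (adjusted p = 0.135). At 4 h, UHRF1 and HELLS were each higher with DHT by 0.30 on the log2 scale and SUZ12 was lower (-0.18, adjusted p = 0.0212), against 8.49% and 7.28% of all genes, and no member exceeded 2-fold by edgeR, against 1.83% of all genes. With the prefix as a term the 4 h difference of UHRF1 alone was called, and SUZ12 and HELLS had adjusted p of 0.185 and 0.0866. In that fit 664 of all 15595 genes were higher and 396 lower with DHT at 4 h.

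At 24 h the genes of S phase and mitosis moved in the direction of UHRF1, HELLS, DNMT1 and EZH2. EZH1 and DNMT3A moved the other way with enzalutamide, as did DNMT3A with DHT, and SUZ12 was not called with DHT. In the S-phase list all 21 genes fell after 24 h of enzalutamide (median log2 change -1.38), 7 fell at 4 h (median -0.14), none changed after 4 h of DHT with edgeR, and all 21 rose after 24 h of DHT (median 0.85). MCM2, a subunit of the replication helicase, averaged 130.6 CPM in vehicle, 50.1 CPM after 24 h of enzalutamide and 231 CPM after 24 h of DHT. In a list of 14 mitotic genes all fell after 24 h of enzalutamide (median -1.21) and all rose after 24 h of DHT (median 0.50). The part of the cell cycle in the members' changes was not tested, and in bulk RNA fewer cells that express a gene and less RNA per cell cannot be told apart.

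In siControl cells 25 µM enzalutamide for 24 h was tested in another experiment, with another dose, sequencer and unit. Again all 9 members passed the test (limma on log2(RPKM + 0.1), 20369 genes), of which 7 fell and 2 rose, where 24.4% of all genes fell and 17.7% rose. The median log2 change was -0.51, against -0.02 over all genes. HELLS, UHRF1 and DNMT1 fell more than 2-fold, a change that 2.13% of all genes exceeded in either direction.

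HELLS was at 4.62, 4.98 and 4.52 RPKM with vehicle and at 1.24, 1.01 and 1.13 RPKM with enzalutamide, and fell by 76.1% (log2 change -1.98, SE 0.10, adjusted p = 2.22e-07). UHRF1 was at 3.71, 3.22 and 3.59 RPKM with vehicle and at 1.12, 1.11 and 0.982 RPKM with enzalutamide (log2 change -1.62, SE 0.09, adjusted p = 3.02e-07). DNMT1 was at 33.1, 31.7 and 32.2 RPKM with vehicle and at 16.3, 15.9 and 15.0 RPKM with enzalutamide (log2 change -1.04, SE 0.04, adjusted p = 3.77e-08). For all 3 genes every treated library lay below every vehicle library.

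EZH2 was at 11.6, 13.1 and 12.2 RPKM with vehicle and at 9.57, 8.84 and 9.43 RPKM with enzalutamide (log2 change -0.40, SE 0.05, adjusted p = 9.34e-05). EZH1 was at 5.75, 5.44 and 5.78 RPKM with vehicle and rose to 7.56, 7.82 and 7.70 RPKM (log2 change 0.44, SE 0.03, adjusted p = 1.68e-06). EED went from 7.02, 6.85 and 7.16 RPKM to 5.05, 4.89 and 4.70 RPKM (log2 change -0.51, SE 0.05, adjusted p = 2.09e-05). For EZH2 and EED every treated library lay below every vehicle library, and for EZH1 above. SUZ12, at 20.4, 20.9 and 19.7 RPKM with vehicle and 17.9, 17.8 and 19.4 RPKM with enzalutamide, fell by 0.15 on the log2 scale (log2 change -0.15, SE 0.04, adjusted p = 0.0127), and that call was lost without enzalutamide replicate 2 (adjusted p = 0.0508). DNMT3B fell from 3.78, 3.52 and 3.57 RPKM to 2.24, 2.32 and 2.06 RPKM (log2 change -0.69, SE 0.07, adjusted p = 1.49e-05). DNMT3A rose from 5.16, 4.97 and 5.07 RPKM to 5.63, 5.89 and 5.63 RPKM (log2 change 0.17, SE 0.04, adjusted p = 0.0027).

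Set side by side, 10 µM enzalutamide in untransfected cells and 25 µM in siControl cells gave log2 changes at 24 h of -1.38 and -1.98 for HELLS, -1.28 and -1.62 for UHRF1, -0.71 and -1.04 for DNMT1, and -0.52 and -0.40 for EZH2. Dose, transfection, unit and sequencer all differ between these values, and the difference was not tested. The S-phase list fell in siControl cells as well, with 21 of 21 genes lower (median -1.85), as did 14 of 14 mitotic genes (median -0.65).

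**Figure D2:**
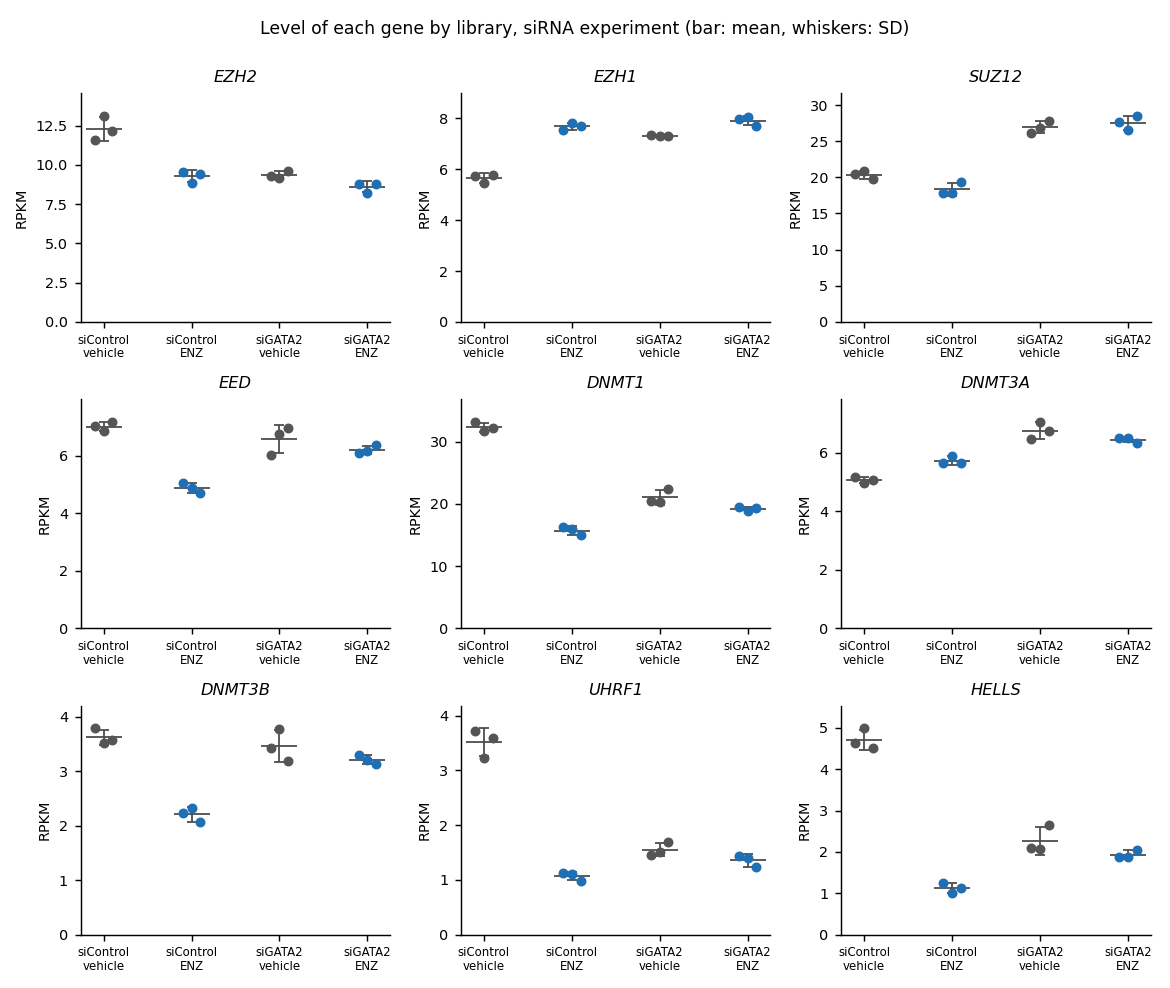
Level of each of the 9 genes in RPKM (vertical axis, linear and starting at 0) in the 12 siRNA libraries, grouped by siRNA and treatment. Points are single libraries and bars are the means of 3 replicates with SD as whiskers. HELLS, UHRF1 and DNMT1 drop with enzalutamide in siControl cells, are already low in siGATA2 cells with vehicle and change little when enzalutamide is added there.

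GATA2 silencing by itself, in vehicle, lowered the maintenance genes and EZH2 but not the whole set. Of the 9 members 4 fell and 3 rose, where 31.4% of all genes fell and 24.2% rose. UHRF1 was at 1.46, 1.51 and 1.69 RPKM in siGATA2 cells (log2 change -1.13, SE 0.09, adjusted p = 1.17e-06) and HELLS at 2.10, 2.06 and 2.66 RPKM (log2 change -1.03, SE 0.10, adjusted p = 7.76e-06). Both fell more than 2-fold, a change that 5.64% of all genes exceeded in either direction. DNMT1 was at 20.5, 20.2 and 22.4 RPKM (log2 change -0.62, SE 0.04, adjusted p = 3.75e-07) and EZH2 at 9.27, 9.14 and 9.64 RPKM (log2 change -0.39, SE 0.05, adjusted p = 5.22e-05).

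The genes that rose with siGATA2 were SUZ12, DNMT3A and EZH1. SUZ12 was at 26.1, 26.8 and 27.8 RPKM, above every siControl library (log2 change 0.40, SE 0.04, adjusted p = 8.96e-06), and SUZ12P1 rose as well (log2 change 0.18, adjusted p = 0.00716). DNMT3A was at 6.46, 7.04 and 6.75 RPKM (log2 change 0.41, SE 0.04, adjusted p = 3.01e-06) and EZH1 at 7.33, 7.31 and 7.33 RPKM (log2 change 0.37, SE 0.03, adjusted p = 1.78e-06). DNMT3B (3.43, 3.78 and 3.19 RPKM, log2 change -0.07, 95% interval -0.21 to 0.08) and EED (6.02, 6.74 and 6.96 RPKM, log2 change -0.09, 95% interval -0.21 to 0.02) overlapped siControl cells. In this comparison 21 of 21 S-phase genes (median -0.94) and 14 of 14 mitotic genes (median -0.72) fell, and their part in the result was not tested.

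In siGATA2 cells enzalutamide changed no member by the test (0 of 9 with limma, where 0.221% of all genes rose and 0.191% fell, and the same share, 0.191%, exceeded 2-fold). EZH1 (log2 change 0.11, adjusted p = 0.199), DNMT1 (log2 change -0.13, adjusted p = 0.288) and EZH2 (log2 change -0.12, adjusted p = 0.433) had an unadjusted p under 0.05. The share of all genes under that unadjusted limit was not counted, so no excess can be read from it. HELLS was at 1.89, 1.86 and 2.05 RPKM with enzalutamide (log2 change -0.21, 95% interval -0.44 to 0.01) and UHRF1 at 1.44, 1.41 and 1.23 RPKM (log2 change -0.18, 95% interval -0.37 to 0.01). DNMT1 was at 19.4, 18.9 and 19.3 RPKM. None of the S-phase genes was called by limma here (median -0.19), and 4 of 14 mitotic genes fell (AURKB, BIRC5, NUSAP1 and PLK1). The intervals do not exclude falls smaller than those of siControl cells.

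The difference between the responses was tested itself, as the interaction of siRNA and treatment, and all 9 members passed, where 15% of all genes had a positive and 10.8% a negative interaction. The effect of enzalutamide in siGATA2 minus that in siControl cells was 1.77 for HELLS (SE 0.14, adjusted p = 1.95e-05), 1.44 for UHRF1 (SE 0.12, adjusted p = 2.58e-05) and 0.91 for DNMT1 (SE 0.06, adjusted p = 4.68e-06) on the log2 scale. It was 0.59 for DNMT3B (SE 0.09), 0.44 for EED (SE 0.07) and 0.28 for EZH2 (SE 0.07). For the genes that rose in siControl cells it was negative, at -0.33 for EZH1 (SE 0.04) and -0.24 for DNMT3A (SE 0.05). SUZ12 was nearest the threshold (0.18, SE 0.06, adjusted p = 0.0392), and its call was lost in 8 of the fits that leave out 1 library (adjusted p from 0.0751 to 0.091) and with median-centred values (adjusted p = 0.0776). HELLS and UHRF1 exceeded 2-fold, as did 1.81% of all genes in either direction.

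With enzalutamide present, 7 members were higher and none lower in siGATA2 cells by limma, against 26.3% and 28.1% of all genes, and none exceeded 2-fold, against 5.78% of all genes. HELLS was higher by 0.74 on the log2 scale (SE 0.10), SUZ12 by 0.58 (SE 0.04), DNMT3B by 0.52 (SE 0.07), EED by 0.34 (SE 0.05), UHRF1 by 0.32 (SE 0.09), DNMT1 by 0.29 (SE 0.04) and DNMT3A by 0.17 (SE 0.04). EZH1 (log2 difference 0.04, adjusted p = 0.289) and EZH2 (log2 difference -0.11, adjusted p = 0.0919) were not called. DNMT1, for example, was at 15.0 to 16.3 RPKM in siControl and at 18.9 to 19.4 RPKM in siGATA2 cells with enzalutamide. Among the S-phase genes 19 of 21 were also higher (median 0.64) and CDT1 was lower (log2 difference -0.41), while of 14 mitotic genes 4 were higher and 7 lower (median -0.16).

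**Figure D3:**
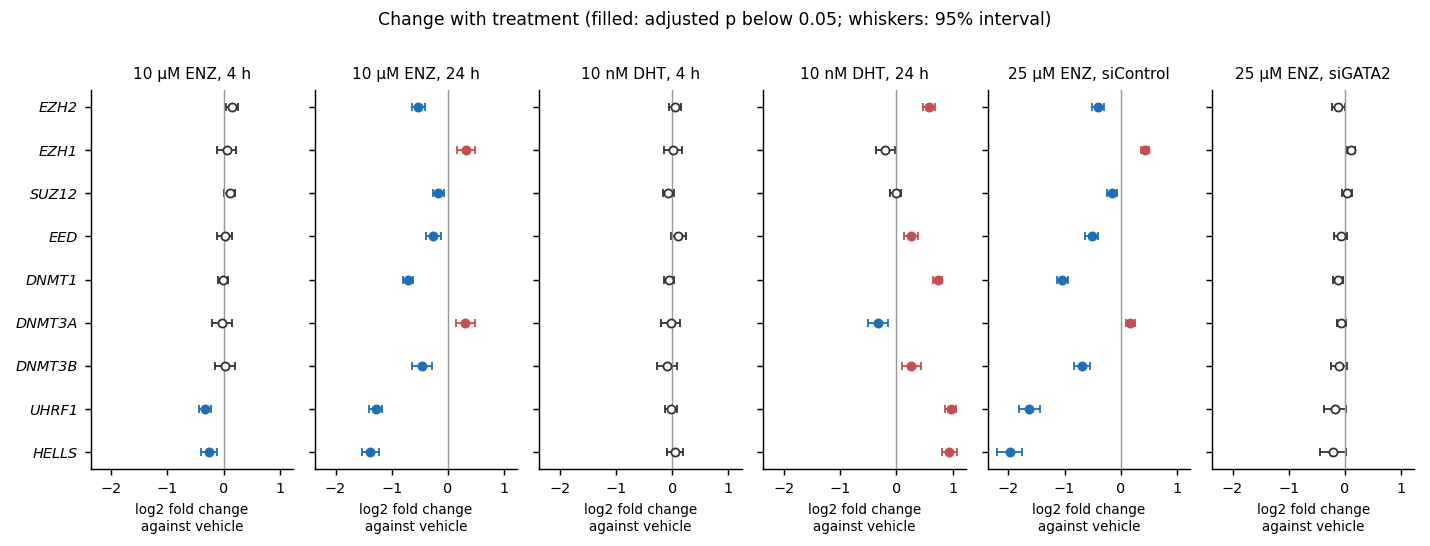
Log2 change (horizontal axis) of each of the 9 genes in 6 comparisons, with 95% intervals of the fitted change as whiskers and filled points for an adjusted p under 0.05. The ligand changes are from edgeR and the siRNA changes from limma on log2(RPKM + 0.1). HELLS and UHRF1 lie farthest from 0, at -1.38 and -1.28 after 24 h of 10 µM enzalutamide and at 0.94 and 0.96 after 24 h of DHT.

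Because RPKM is per length, the balance of the alternative enzymes could be compared within a library. The ratio of EZH2 to EZH1 was 2.02, 2.41 and 2.10 in siControl vehicle cells and 1.27, 1.13 and 1.23 with enzalutamide, a log2 difference of -0.85 (SE 0.09, exact two-sided permutation p = 0.1). In siGATA2 cells it was 1.26, 1.25 and 1.31 with vehicle and 1.10, 1.02 and 1.14 with enzalutamide. The siGATA2 vehicle ratios overlapped those of siControl cells with enzalutamide, and EZH2 exceeded EZH1 in each of the 12 libraries. The ratio of DNMT3B to DNMT3A was 0.734, 0.7096 and 0.704 in siControl vehicle cells and 0.398, 0.393 and 0.366 with enzalutamide (log2 difference -0.89, SE 0.04, exact p = 0.1). It was 0.530, 0.537 and 0.472 in siGATA2 vehicle cells and 0.5097, 0.493 and 0.494 with enzalutamide, with overlapping groups (log2 difference -0.04, exact p = 0.6). Of 8 such exact permutation tests, 6 reached p = 0.1, the smallest that 3 against 3 libraries allow, or 0.133 adjusted over the 8.

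**Figure D4:**
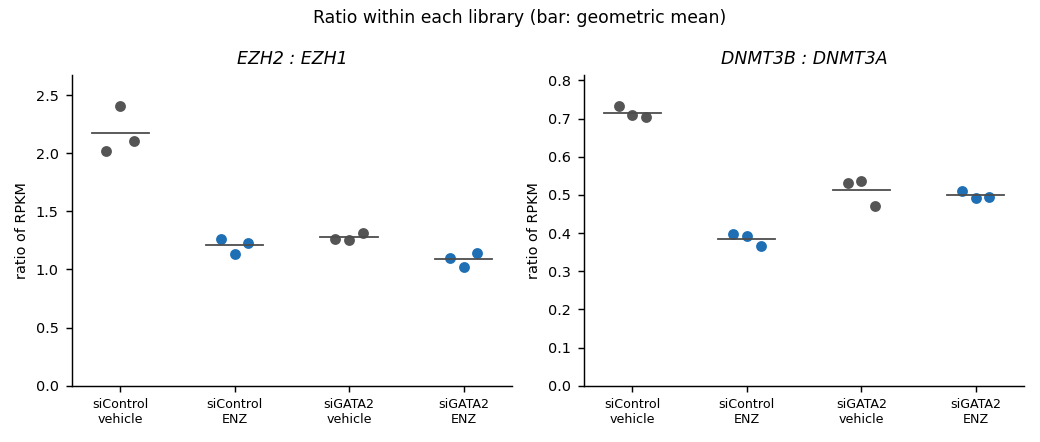
Ratio of EZH2 to EZH1 and of DNMT3B to DNMT3A (vertical axis, RPKM over RPKM, linear and starting at 0) in each of the 12 siRNA libraries. Points are libraries and lines are geometric means of 3. EZH2 to EZH1 is between 2.02 and 2.41 in siControl vehicle cells and at most 1.31 in the other groups.

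The other genes of these pathways were taken from lists. The PRC2 accessory list held subunits that steer the complex to its targets and also the histone chaperones RBBP4 and RBBP7. Of its genes 10 were in the tables and 9 were tested in the ligand experiment. After 24 h of enzalutamide 1 rose, PHF1 (log2 change 0.42), and 3 fell, among them RBBP7 (-0.42), a histone chaperone of the complex, and EPOP (-0.34). With DHT for 24 h RBBP7 (0.30) and EPOP (0.21) rose and JARID2 fell (-0.50). In siControl cells enzalutamide raised PHF1 (0.83) and JARID2 (0.10) and lowered 4, including MTF2 (-0.58) and RBBP7 (-0.47). In siGATA2 vehicle cells 4 rose, led by LCOR (1.20) and PHF1 (0.87), and 3 fell, led by RBBP4 (-0.67). PHF1 thus rose with enzalutamide and RBBP7 fell with it in both experiments. LCOR (1.23) and MTF2 (1.07) were among 4 that were higher, and RBBP4 (-0.30) among 2 that were lower, with siGATA2 under enzalutamide.

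The enzymes that remove the PRC2 mark, KDM6A and KDM6B, moved against EZH2 with ligand or enzalutamide at 24 h outside siGATA2 cells. KDM6B rose by 0.24 on the log2 scale after 24 h of enzalutamide (adjusted p = 0.000519) and fell with DHT (log2 change -0.59, adjusted p = 9.08e-08). KDM6A changed by 0.13 and -0.49 in the same comparisons, and both rose in siControl cells with enzalutamide (0.37 for KDM6B and 0.16 for KDM6A). Of the 6 methyltransferases for histone H3 lysine 9, a mark that UHRF1 also reads, 4 fell after 24 h of enzalutamide. SUV39H1 changed by -1.02 with enzalutamide, by 0.70 with 24 h of DHT, by -1.23 with enzalutamide in siControl cells and by -1.46 with siGATA2. SUV39H2 changed by -0.72, 0.61, -0.82 and -0.55 in the same order, while SETDB1 rose in siControl cells with enzalutamide (0.26).

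Partners of DNA methylation followed the maintenance genes in part. Of 8 tested in the ligand experiment 3 fell after 24 h of enzalutamide, led by PCNA (log2 change -1.10), the replication clamp that tethers DNMT1 and is also in the S-phase list, and CDCA7 (-0.95), the activator of HELLS. After 24 h of DHT 7 rose, led by CDCA7 (1.06) and PCNA (0.81). In siControl cells with enzalutamide 6 of 9 fell, with PCNA and CDCA7 both at -1.30, and AHCY, which clears the product that inhibits methyltransferases, rose (0.21). With siGATA2 in vehicle 5 of 9 fell, CDCA7 by 1.91 on the log2 scale (log2 change -1.91) and PCNA by 0.83 (log2 change -0.83). Under enzalutamide HELLS was higher with siGATA2 than with siControl, and CDCA7 was lower (log2 difference -0.80, adjusted p = 3.22e-05).

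Genes of active demethylation were mixed. After 24 h of enzalutamide 2 of 8 rose, GADD45A and IDH1 (both 0.58), and 2 fell, IDH2 (-0.41) and the glycosylase TDG (-0.30). IDH1, whose product feeds the TET dioxygenases, also rose after 24 h of DHT (0.72), where TET2 fell (-0.57) and 3 of 8 rose in all. In siControl cells with enzalutamide 3 rose, led by IDH1 (1.09) and GADD45A (0.78), and 5 fell, TET1, TET2 and TET3 among them. In siGATA2 vehicle cells 5 rose, including GADD45B (0.84) and TET2 (0.55), and IDH1 fell (-0.36).

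**Figure D5:**
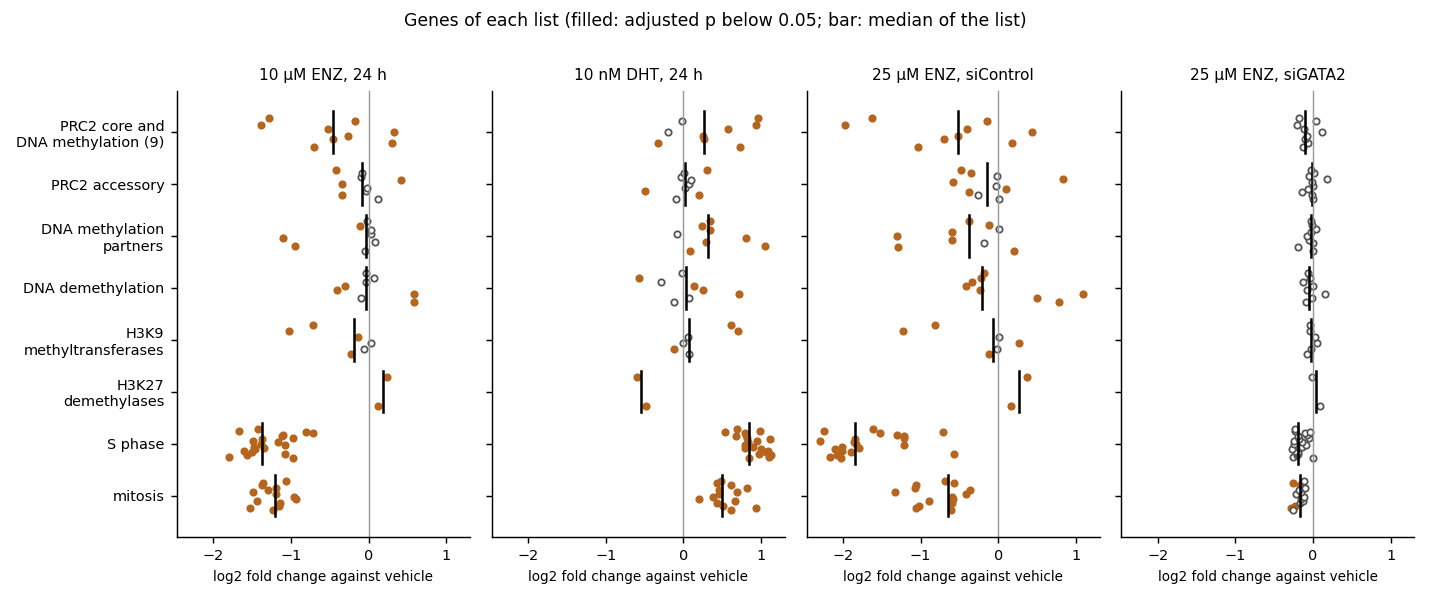
Log2 change (horizontal axis) of the genes of 8 lists in 4 comparisons, where each point is a gene of the list, filled for an adjusted p under 0.05, and the vertical mark is the median. The S-phase list has a median of -1.38 after 24 h of 10 µM enzalutamide, 0.85 after 24 h of DHT and -1.85 with 25 µM enzalutamide in siControl cells, while PRC2 accessory, demethylation and H3K9 methyltransferase genes lie on both sides of 0 in these comparisons.

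Of 14 E2F, RB and DREAM regulators, which control S-phase promoters, 8 fell and 1 rose after 24 h of enzalutamide, led by E2F8 (log2 change -1.93) and E2F7 (-1.66), while RBL2, a pocket protein of resting cells, rose (0.16). After 24 h of DHT 9 rose, led by E2F8 (1.20) and E2F7 (1.06), and 2 fell, RBL2 (-0.18) and TFDP2 (-0.16). In siControl cells with enzalutamide 11 fell, including E2F7 (-1.79) and MYBL2 (-1.60), and 2 rose, E2F5 (0.35) and RBL2 (0.16). Silencing of GATA2 lowered 9, led by E2F7 (-1.15) and MYBL2 (-1.07), and raised 1, E2F3 (0.30). In siGATA2 cells enzalutamide lowered MYBL2 alone of the 14 (-0.28, adjusted p = 0.00285).

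The genes whose levels followed those of 3 members most closely were found by Pearson's correlation of log2 levels, ranked by the lower of the values over 10 ligand and 12 siRNA libraries among 11367 genes, as a description. The libraries share their conditions and treatments, so these values carry no test. UHRF1 was most like CDK2 (r = 0.99 and 0.99), RECQL4 (0.99 and 0.99) and NCAPD3 (0.99 and 0.99). EZH2 was most like KIF15 (0.98 and 0.97), TMPO (0.97 and 0.97) and NDC1 (0.98 and 0.97). EZH1 was most like MBD6 (0.97 and 0.98), ATP5MC2 (0.94 and 0.96) and IFT140 (0.94 and 0.94). Between members, EZH2 correlated with EZH1 at -0.89 and -0.98, with DNMT1 at 0.98 and 0.84 and with SUZ12 at 0.57 and -0.44 in the ligand and siRNA libraries.

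Genes known as targets of PRC2 silencing in prostate or other cancers did not move together. Of 12 in the list 9 were tested in the ligand experiment, and after 24 h of enzalutamide, where EZH2 fell, 2 rose, VASH1 (log2 change 0.31, adjusted p = 0.0478) and CDH1 (0.13), and 2 fell. After 24 h of DHT, where EZH2 rose, 3 rose, among them MSMB, a secreted protein of prostate epithelium, and VASH1 (-0.56) and CDKN1C fell. In siControl cells with enzalutamide 2 of 12 rose, VASH1 (0.46) and CDH1 (0.09), and 4 fell, led by MSMB (-1.36). With siGATA2 in vehicle 5 rose, led by CDKN1C (1.31) and CDH1 (0.27), and 6 fell.

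Of 8 genes whose promoters are often methylated in prostate cancer, 5 were tested in the ligand experiment. RASSF1 fell after 24 h of enzalutamide (log2 change -0.37), and after 24 h of DHT RARB (0.90) and RASSF1 (0.44) rose and MGMT fell (-0.26). In siControl cells with enzalutamide 2 of 8 rose, including MGMT (0.22), and RASSF1 fell (-0.23). With siGATA2 in vehicle MGMT (0.28) and APC (0.23) rose and 3 genes fell. GSTP1 stayed near 0 in every group, with a mean of at most 0.0281 CPM and 0.0269 RPKM, also in the groups in which DNMT1 and UHRF1 were lowest.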

How the data were processed

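LNCaP RNA-seq libraries (24 samples, poly(A) RNA) were grouped by their labels. Per the study's methods and processing notes, the authors aligned reads to hg19 with TopHat 2.0.13 and quantified genes in Partek Genomics Suite 6.6. The ligand tables deposited by the authors hold estimated counts per gene, not normalized (55% to 62.4% of values per library whole), and were rounded to whole counts. The deposited siRNA tables hold RPKM, normalized by the authors for gene length and mapped reads. All sample columns were used. How reads shared between copies of a gene were assigned is not given in the sources used here.

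Counts were tested in edgeR 4.0.16 (R 4.3.3; TMM, low-count filter, quasi-likelihood test, 1 model of 5 conditions, 15555 genes). RPKM values were tested as log2(RPKM + 0.1) in limma 3.58.1 (1 model of 4 conditions, genes above 0 in at least 3 libraries, 20369 genes), so that fold changes of low genes are understated. Benjamini-Hochberg adjusted p under 0.05 over all genes tested was called a change. Scripts were tested on simulated data. Alternatives were RLE factors, DESeq2 1.42.0, limma on log2(CPM + 1), no filter, 4 separate vehicle columns, other RPKM pseudocounts and filters, median-centring, the study's 2-fold rule, a replicate block, leaving out each library and, added after seeing the data, the header prefix as a term.

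The members and lists were chosen with earlier results of these data known. List genes were named for the largest changes (up to 2 in each direction, log2 of the mean CPM at least 1 or mean RPKM at least 1). The other list genes named, such as MCM2, CDT1 and SUZ12P1, were chosen after their values were seen. Same-numbered libraries of different groups did not deviate together in general (r from -0.204 to 0.188 over 20 ligand pairs and from -0.342 to 0.28 over 18 siRNA pairs). With 2 replicates, each ligand value is the same for both replicate numbers. The 3 pairs of siControl and siGATA2 cells with enzalutamide all had a positive r (0.113, 0.241 and 0.148), and that pairing comes from the numbers in the titles alone. Some ligand pairs had a positive r as well, such as vehicle and 24 h of DHT (0.188). Some genes of the lists are counted but not reported here by name.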

Additional observations from a re-analysis of the deposited data

Results flagged for a closer look

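Of the values examined, 25 stood out because a test of a difference gave an adjusted p under 0.05. The test was limma for the effect of enzalutamide between the siRNAs, and edgeR for treated libraries at 24 h against 4 h. The edgeR values repeat the comparisons between times given above, and no explanation was tested. The effect of 25 µM enzalutamide was different in siGATA2 and siControl cells for all 9 genes, with log2 differences (siGATA2 minus siControl) of 1.77 for HELLS, 1.44 for UHRF1, 0.91 for DNMT1, 0.59 for DNMT3B, 0.44 for EED, 0.28 for EZH2, 0.18 for SUZ12, -0.24 for DNMT3A and -0.33 for EZH1.

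With 10 µM enzalutamide all 9 genes differed between the libraries at 24 h and at 4 h (24 h minus 4 h). Both times share 1 vehicle group without a time, which cancels. Changes with time in culture were therefore not separated from those with treatment, and this holds for DHT as well. The log2 differences were -1.12 for HELLS, -0.95 for UHRF1, -0.70 for DNMT1, -0.68 for EZH2, -0.49 for DNMT3B, -0.28 for EED, -0.27 for SUZ12, 0.27 for EZH1 and 0.34 for DNMT3A. The DHT libraries at 24 h and at 4 h differed for 7 genes, at 0.99 for UHRF1, 0.89 for HELLS, 0.79 for DNMT1, 0.54 for EZH2, 0.36 for DNMT3B, -0.21 for EZH1 and -0.31 for DNMT3A. In the ligand experiment the header prefix differs between the times, and with it as a term the calls of EZH1, EED and DNMT3A (enzalutamide) and of EZH1, DNMT3A and DNMT3B (DHT) were lost.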

How the results depend on the processing

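Across the alternatives other than the 2-fold rule, 2034 values of the 9 genes were recomputed: 1973 stayed on the same side of the threshold, 48 lost a call, 13 gained one and none of the called values changed sign. Calls of HELLS, UHRF1, DNMT1 and EZH2 against vehicle at 24 h of either ligand and with enzalutamide in siControl cells were kept under each of these alternatives. By the 2-fold rule the number of members called was 0 for enzalutamide at 4 h, 2 at 24 h, 0 for DHT at 24 h, 1 for enzalutamide between 4 h and 24 h, 0 for DHT between 4 h and 24 h, 0 and 4 for DHT against enzalutamide at 4 h and 24 h, 3 for enzalutamide in siControl cells, 2 for siGATA2 in vehicle, 0 for siGATA2 under enzalutamide and 2 for the interaction.

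With the header prefix as a term, 4 members were called for DHT between 4 h and 24 h and 1 for DHT against enzalutamide at 4 h. Of all 15595 genes that fit called 2832 up and 2513 down in the first of these comparisons. In the second it called 664 up and 396 down. Leaving out 1 library gave 1 to 3 members for enzalutamide at 4 h (1 without vehicle replicate 1 or 2), 7 to 9 at 24 h, 6 to 8 for DHT at 24 h and 1 to 3 for DHT against enzalutamide at 4 h (1 without DHT replicate 1). DNMT3A at 24 h of enzalutamide was not called without vehicle replicate 1 (adjusted p = 0.102) or enzalutamide replicate 2 (adjusted p = 0.126). EZH1 was not called there without vehicle replicate 2 (adjusted p = 0.0593) or enzalutamide replicate 1 (adjusted p = 0.0711). DNMT3B was not called at 24 h of DHT with DESeq2 (adjusted p = 0.0782), without vehicle replicate 2 (adjusted p = 0.0639) or without DHT replicate 1 (adjusted p = 0.126). The EZH2 to EZH1 difference in siControl cells ranged from -0.90 to -0.77 and the DNMT3B to DNMT3A difference from -0.92 to -0.86.

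With the replicate number as a block, the counts of members called were the same as without it in all 13 comparisons, for example 9 for enzalutamide at 24 h, 7 for DHT at 24 h, 9 in siControl cells and 7 for siGATA2 under enzalutamide, and no member's call changed.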

Other observations

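PRC1, the partner complex that binds the H3K27 mark and ubiquitinates histone H2A, had members that moved in both directions. Of 20 PRC1 genes, 3 rose and 4 fell after 24 h of enzalutamide, led by PCGF5 (log2 change 0.41) and CBX2 (-0.30), and 4 rose and 6 fell after 24 h of DHT, led by PCGF1 (0.52) and PHC1 (-0.60). PHC1, in turn, rose with enzalutamide (0.35). In siControl cells enzalutamide raised 4, among them PCGF2 (0.48), and lowered 4, among them PCGF3 (-0.33). With siGATA2 in vehicle 7 rose, among them PHC3 (0.52), and 8 fell, led by SCMH1 (-1.22) and CBX6 (-0.99). SCMH1 was also lower under enzalutamide (log2 difference -1.29).

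Of 8 genes from the families of proteins that bind methylated DNA, 1 rose and 1 fell after 24 h of enzalutamide, ZBTB38 (0.34) and MBD3 (-0.17). After 24 h of DHT MBD4 rose (0.23) and 3 fell, including ZBTB4 (-0.29). In siGATA2 vehicle cells ZBTB4 (0.72), MBD2 (0.31) and ZBTB38 rose and MBD3 fell (-0.37). Of 8 germline genes that DNA methylation is known to silence, 2 were high enough to test in the ligand and 6 in the siRNA experiment, and none rose in the 24 h comparisons with vehicle, in siControl cells with enzalutamide or with siGATA2 by edgeR or limma.

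Of the 9 luminal markers, 6 fell and 1 rose after 24 h of enzalutamide, 6 rose and 2 fell after 24 h of DHT, 6 fell in siControl cells with enzalutamide, and 5 fell and 3 rose with siGATA2 in vehicle.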
